A study of Mus musculus with 2 samples.

Results

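The genes described here carry the interferon signal from the cell surface to its antiviral products. They comprise the interferon receptor chains and their Janus kinases, the interferon regulatory factors (IRFs) and STAT transcription factors, and the interferon-stimulated genes that act as effectors. A list of 48 such genes was matched by symbol, and every probe set whose platform annotation gave exactly 1 of these symbols was taken. This gave 86 probe sets for 46 genes, out of 18193 genes measured on the arrays. Isg15, which encodes a ubiquitin-like modifier, and Ifi44 had no probe set that met this rule, so neither is given a value.

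Interferons bind paired receptor chains whose attached Janus kinases phosphorylate STAT proteins. After type I interferon, Stat2 and the DNA-binding partner Irf9 form part of the complex ISGF3, which binds interferon-stimulated response elements in the promoters of antiviral genes. In haematopoietic stem cells, type I interferon is known to drive quiescent cells into cycle, and part of the antiviral programme is known to be active in these cells without infection.

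The cells were of 2 groups, both made from bone marrow of wild-type C57BL6J mice, and each was measured on 1 Affymetrix array. One group was transduced with Satb1, which encodes a chromatin organiser that binds AT-rich DNA, and the control group was transduced with GFP. Both were of the LSK Flt3- fraction, which lacks lineage markers and Flt3 and carries Sca-1 and high c-Kit. The sources used here give no animal age, number of animals, time after transduction or promoter driving the transduced gene. With 1 array per group, no difference below has a standard error, a p-value or a replicate check. In bulk RNA, fewer cells of a type and less RNA per cell cannot be told apart.

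The transduced gene itself did not check the labels. The brightest Satb1 probe set read 909 on the array labelled Satb1 and 1116 on the array labelled GFP, a log2 difference of -0.30. All 4 of its probe sets that passed the floor on 1 or both arrays were lower on the array labelled Satb1, down to 165 against 288 (-0.81). Where the Satb1 probe sets lie relative to the transduced sequence is not given, so arrays are named by label and every direction below rests on those labels. Of 7 measured stem and progenitor genes, Kit (3388 against 3293), Cd34 (8197 against 8563), Mecom, Meis1 and Procr differed little, while Slamf1 was higher (233 against 95.7, log2 difference 1.28) and Hlf lower (382 against 673, -0.82). Cd3e, Cd3g and Cd4 of the T cell markers, Cd79a, Ms4a1 and Pax5 of the B cell markers, all 3 measured NK cell markers and both erythroid markers were below the floor on both arrays. Cd8a (148 against 88.9), Thy1 (84.7 against 120) and Cd79b (352 against 412) of those lists exceeded it. All 4 measured monocyte and macrophage markers exceeded it as well, 3 lower and 1 higher, beside 54.8% lower among all genes. Csf1r read 3548.5 against 4099, Cd68 547.8 against 611.3, Itgam 120.6 against 127.2 and Adgre1 192.5 against 169.6. The floor is an intensity of 61.7, the median of all values, and lower values were set to it before differences were taken.

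No interferon pathway gene above the floor was called at 1.5-fold between the arrays, though the ratios of Oas2 and Oasl1, whose GFP values lay below the floor, are lower bounds. Of the 46 genes, 39 exceeded the floor on 1 or both arrays, and 0 of these 39 were higher or lower by 2-fold or by 1.5-fold on the array labelled Satb1. Among all 11048 genes above the floor, 0.272% were higher and 0.86% lower by 2-fold, and 1.75% were higher and 3.91% lower by 1.5-fold. Beside shares this small, a count of 0 among 39 genes is not particular to the interferon pathway. The log2 differences (array labelled Satb1 minus array labelled GFP) ran from -0.50 for Bst2 to at least 0.39 for Oas2. The median absolute log2 difference was 0.14 for these genes and 0.15 for all genes. By sign alone, 24 of the 39 were lower and 15 higher, beside 54.8% lower and 45.2% higher among all genes. The median was -0.07, beside -0.02 for all genes.

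**Figure D1:**
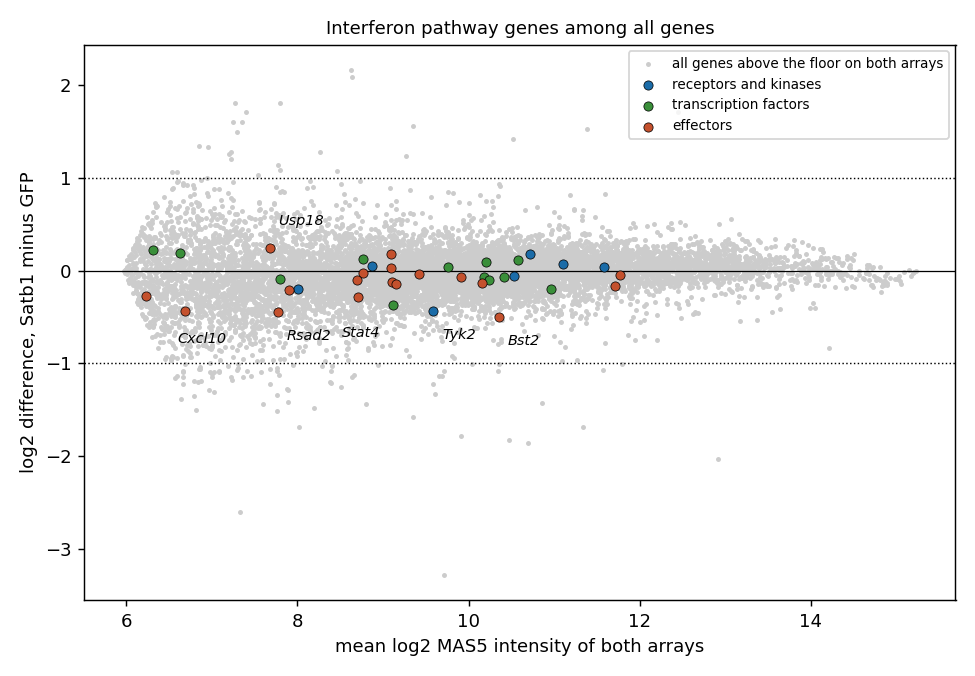
Log2 difference of the array labelled Satb1 minus the array labelled GFP (vertical) against the mean log2 MAS5 intensity of both arrays (horizontal) for genes above the floor on both; grey points are all genes, coloured points the interferon pathway genes by role, and dotted lines mark 2-fold. The coloured points lie inside the grey cloud at every brightness, with Bst2 the lowest at -0.50.

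The roles differed in how many genes lay above the floor. All 7 receptor and kinase genes did, as did 12 of the 13 transcription factor genes and 20 of the 26 measured effector genes, beside 60.7% of all genes. Intensities of different probe sets depend on the probes as well as on the transcript, so genes were not ranked against each other by level. The 7 genes below the floor on both arrays were Irf4, Ifit1, Ifit3, Oas3, Mx1, Mx2 and Zbp1. Their intensities ran from 6.5 (Mx2) to 52.3 (Mx1) on the array labelled Satb1 and from 5.9 (Ifit3) to 43.0 (Irf4) on the array labelled GFP, and no fold is given for them.

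**Figure D2:**
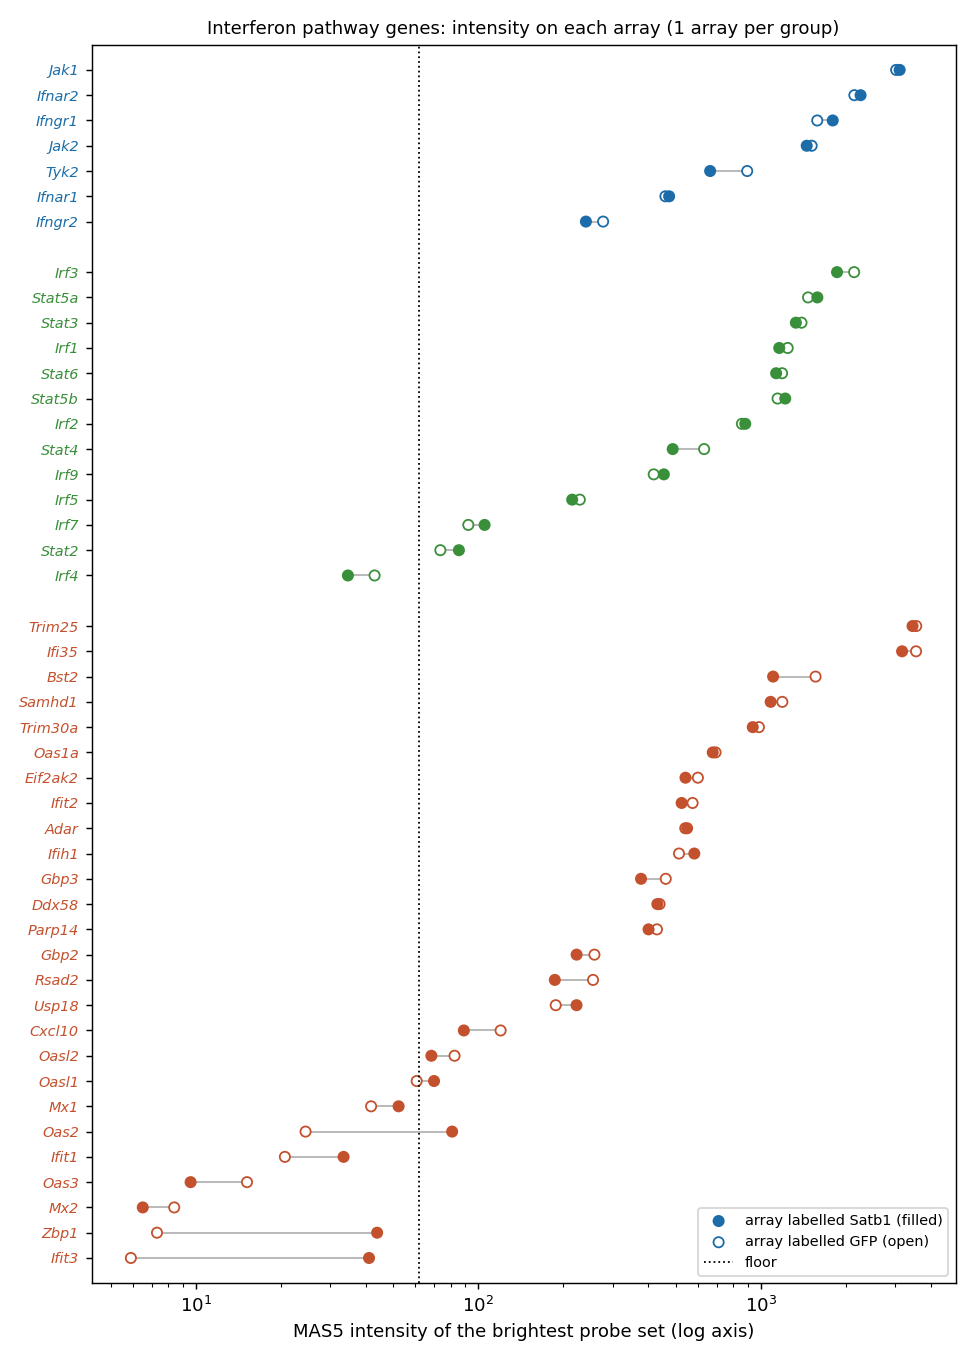
MAS5 intensity (log axis) of the brightest probe set of each of the 46 genes on the array labelled Satb1 (filled) and the array labelled GFP (open), 1 array each, coloured by role (blue, receptors and kinases; green, transcription factors; orange, effectors); the dotted line is the floor of 61.7. Each row is read on its own; the widest gaps are in genes at or below the floor, such as Ifit3, Zbp1 and Oas2.

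Both chains of the type I interferon receptor read almost the same on the arrays. Ifnar2, the chain bound by Jak1, read 2258 on the array labelled Satb1 and 2146 on the array labelled GFP, a log2 difference of 0.07, and its 3 probe sets all lay between 0.05 and 0.08. Ifnar1, the chain bound by Tyk2, read 474 against 460, a log2 difference of 0.04. A dimmer Ifnar1 probe set read 69.5 against 98.0, the opposite direction.

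The chains of the interferon gamma receptor went opposite ways by small amounts. Ifngr1, which binds the ligand, read 1799 on the array labelled Satb1 and 1586 on the array labelled GFP, a log2 difference of 0.18. Ifngr2, the signalling chain that recruits Jak2, read 241 against 277, a log2 difference of -0.20. Its second probe set read 183 against 296, a log2 difference of -0.70, so the pair of probe sets shared a direction but not a size.

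Among the Janus kinases, Tyk2 stood lowest. Tyk2 read 663 on the array labelled Satb1 and 896 on the array labelled GFP, 1.35-fold lower (log2 difference -0.44). Of the 4039 genes with mean intensities from 500 to 2000, 127 (3.14%) were as low or lower. Since Tyk2 was singled out as the lowest kinase gene, that share is not a test. A single probe set carries this value, since the other did not reach the floor on either array. Jak1, which serves both receptors, read 3104 against 3018, and Jak2, which also serves the thrombopoietin receptor, read 1456 against 1515. Each had at least 1 further probe set going the other way.

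The IRF genes split evenly by sign. Of the 6 above the floor, 3 were higher and 3 lower, and the log2 differences ran from -0.20 to 0.19. Irf1, an activator that interferon induces, read 1163 on the array labelled Satb1 and 1246 on the array labelled GFP. Irf2, its antagonist at shared sites, read 882 against 858. Neither gene differed by more than 0.10 on the log2 scale.

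The genes that start interferon production did not move together. Irf3, which is present before infection and activates the interferon beta gene, read 1863 on the array labelled Satb1 and 2142 on the array labelled GFP, a log2 difference of -0.20. Its 4 probe sets disagreed, with log2 differences of -0.20, -0.46, -0.88 and 0.48. The largest of these in size came from a probe set at 118 against 216, and the last from one at 90.9 against 65.0, just above the floor. The brightest has a suffix that marks possible matches to further transcripts, while the probe set at -0.88 alone ends in _at without a suffix letter. Irf7, which amplifies type I interferon production, read 105 against 92.3, and Irf5, which acts downstream of Toll-like receptors, read 215 against 229.

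The ISGF3 subunit genes were dim or moderate. Irf9 read 454 on the array labelled Satb1 and 418 on the array labelled GFP, a log2 difference of 0.12. Stat2 read 85.5 against 73.5, a log2 difference of 0.22, close to the floor. Its second probe set read 37.1 against 92.9, at least 1.51-fold lower, so the direction of Stat2 depended on the probe set.

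The other STAT genes, which serve mostly cytokines other than interferon, had a narrow range apart from Stat4. Stat5a and Stat5b, neighbours on chromosome 11 that act downstream of thrombopoietin and interleukin-3, read 1587 and 1222 on the array labelled Satb1, against 1472 and 1148 on the array labelled GFP. Their log2 differences were 0.11 and 0.09. Stat3, the next gene on that chromosome and a mediator of interleukin-6 family signals, read 1332 against 1395, with 2 of its 4 probe sets higher and 2 lower. Stat6, which acts downstream of interleukin-4, read 1134 against 1191. The lowest was Stat4, which acts downstream of interleukin-12. It read 488 against 631, 1.29-fold lower by its only probe set, and 227 of 4039 genes of like brightness (5.62%) were as low or lower. That share too belongs to a gene singled out as the lowest of its group and is not a test.

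**Figure D3:**
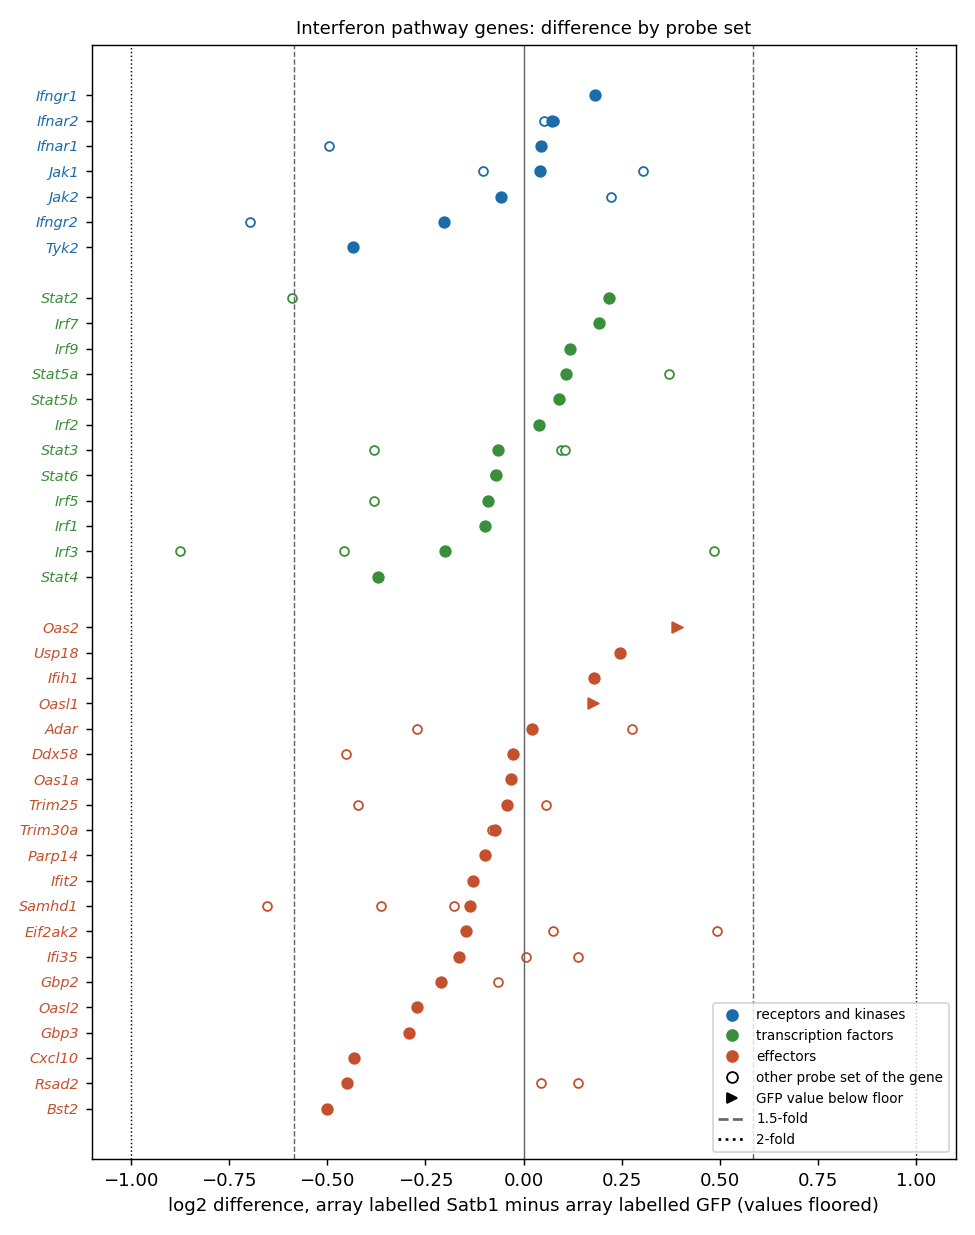
Log2 difference of the array labelled Satb1 minus the array labelled GFP for every probe set of the 39 genes that passed the floor on 1 or both arrays, by role; filled points are the brightest probe set of a gene, open points its other probe sets, triangles genes whose GFP value was below the floor, dashed lines 1.5-fold and dotted lines 2-fold. No filled point passes the 1.5-fold lines, and open points of Irf3, Ifngr2, Samhd1 and Stat2 do.

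Of the 20 effector genes above the floor, 15 (75%) were lower and 5 higher on the array labelled Satb1, beside 54.8% lower among all genes. Their median log2 difference was -0.11. After quantile normalization 13 of the 20 were lower (65%), beside 49.6% of all genes in that scaling. Medians were 0.04 for the 7 receptor and kinase genes and -0.01 for the 12 transcription factor genes, beside -0.02 for all genes.

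Bst2 had the largest difference of these genes where neither value was floored. Bst2 encodes tetherin, a membrane protein that holds budding virus at the cell surface, and in mice it is also used as a surface marker of plasmacytoid dendritic cells. It read 1107 on the array labelled Satb1 and 1565 on the array labelled GFP, 1.41-fold lower by its only probe set. Of 4039 genes of like brightness, 82 (2.03%) were as low or lower. Bst2 was picked from these same values as the lowest of the 39 genes, so this share is not a test. The difference of -0.50 compares with a standard deviation of 0.19 between probe sets of 1 gene at this brightness. That figure leaves out any error shared by a whole array.

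Most markers of plasmacytoid dendritic cells, a cell type that produces interferon, were also lower. All 5 listed markers exceeded the floor, 4 were lower, and their summed intensity was 4220 on the array labelled Satb1 and 4889 on the array labelled GFP. Ccr9 read 146 against 246, Ly6d 174 against 284 and Spib 91.0 against 148, each lower by more than 1.5-fold, beside 3.91% of all genes. These are dim genes, and dim genes spread widely. The standard deviation of the log2 difference over genes was 0.42 at mean intensities below 200 and 0.33 from 200 to 500. The Ccr9 value comes from 1 of 5 probe sets, and the others did not reach the floor. Siglech, which is largely restricted to these cells, read 183 against 172. Tcf4, which progenitors also express, read 3626 against 4040 and so made up most of both sums. Plasmacytoid dendritic cells carry Flt3 on their surface, and both groups were of the LSK Flt3- fraction. How many such cells either sample held was not measured. Their part in the Bst2 difference was not tested.

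Among the effectors, Rsad2 and Cxcl10 were the next lowest. Rsad2, which encodes the antiviral enzyme viperin, read 187 on the array labelled Satb1 and 255 on the array labelled GFP, a log2 difference of -0.45. Further probe sets of Rsad2 read 94.1 against 91.3 and 67.9 against 56.9, both higher, the last with its GFP value below the floor. The mean over its probe sets was -0.09. Cxcl10, a chemokine that attracts T cells and NK cells, read 89.0 against 120, a log2 difference of -0.43. At its brightness 337 of 1725 genes (19.5%) were as low or lower, so dim genes often differed this much.

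The other effectors of the membrane, nucleotide pool and cytoplasm differed less. Samhd1, which degrades deoxynucleotides, read 1085 on the array labelled Satb1 and 1193 on the array labelled GFP, and all 3 of its probe sets that passed the floor on each array were lower. Parp14, an ADP-ribosyltransferase, read 401 against 430. Ifi35 read 3167 against 3549 by its brightest probe set, whose suffix marks possible matches to further transcripts, while its other 2 probe sets were higher by 0.01 and 0.14.

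Both guanylate-binding protein genes above the floor were lower. Gbp2 read 223 on the array labelled Satb1 and 258 on the array labelled GFP, and Gbp3, which is close to it on chromosome 3, read 377 against 461. The log2 differences were -0.21 and -0.29, beside a standard deviation of 0.28 between probe sets of 1 gene at this brightness. Mx1 and Mx2, dynamin-like GTPases against viruses, were below the floor. Common laboratory strains of mice carry defective Mx1.

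Of the 3 nucleic acid sensor genes, 2 were above the floor. Ddx58, which encodes the RNA sensor RIG-I, read 431 on the array labelled Satb1 and 439 on the array labelled GFP. Ifih1, the sensor of long double-stranded RNA, read 582 against 514, a log2 difference of 0.18. Zbp1, a sensor of Z-form nucleic acids, was below the floor at 43.9 against 7.3. Adar, which edits double-stranded RNA, read 549 against 541, and Eif2ak2, the kinase PKR that halts translation, read 542 against 600. The other 2 probe sets of Eif2ak2 were higher, by 0.08 and 0.49.

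The regulators of the response likewise stayed close to equal. Usp18, which removes Isg15 from proteins and restrains the type I receptor, read 223 on the array labelled Satb1 and 188 on the array labelled GFP. Its log2 difference of 0.24 was the highest where neither value was floored. Trim25, a ubiquitin ligase that acts on RIG-I, read 3448 against 3554, and Trim30a, a mouse regulator of Toll-like receptor signalling, read 938 against 986.

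The oligoadenylate synthetase family makes the messenger that activates RNase L. Oas1a read 677 on the array labelled Satb1 and 692 on the array labelled GFP. Oas2 read 80.9 against 24.5, at least 1.31-fold higher. Without a floor that ratio would be 1.72 on the log2 scale, with the GFP value far below the floor. Oasl1 read 69.8 against 60.6 and Oasl2 68.3 against 82.5, both close to the floor, and Oas3 was below it. Of the IFIT genes, which encode proteins that bind viral RNA, Ifit2 read 525 against 574. Its neighbour Ifit3, with 0 protein-coding genes between them, and Ifit1 were below the floor on both arrays.

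Genes with more than 1 usable probe set allow a check within the arrays. Of the 19 interferon pathway genes with 2 or more such probe sets, passing the floor on each array, 10 (52.6%) had probe sets going both ways, beside 52.1% of all such genes. In 7 all were lower (Ifngr2, Irf5, Stat6, Ddx58, Gbp2, Samhd1 and Trim30a), and in 2 all were higher (Ifnar2 and Stat5a). Among all 4840 such genes, all probe sets were lower in 1195 and higher in 1123. Counting probe sets rather than genes, 72 of the 86 passed the floor on 1 or both arrays. Of these, 4 (5.56%) were lower by 1.5-fold and 0 higher, beside 4.72% lower and 2.47% higher among all probe sets with 1 symbol. The 4 belonged to Irf3, Ifngr2, Samhd1 and Stat2, and in each of these genes a brighter probe set differed by less than 1.5-fold.

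What the genes share beyond their names was examined in their promoters. The core of the interferon-stimulated response element, GAAA followed by any 2 bases and a second GAAA, was searched on both strands of RefSeq promoter windows of 300 bases (250 before to 50 after each start, GRCm38.p6). Windows existed for 42 of the 48 listed genes. The core was found in 17 of these 42 (40.5%), beside 3.99% of all 27025 genes with a window. It was found in 14 of 22 effector genes, 3 of 13 transcription factor genes (Irf2, Stat2 and Stat4) and 0 of 7 receptor and kinase genes. The letters TTCNNNGAA, the core of a STAT site, were found in 11 of the 42 (26.2%), beside 9.55% of all genes.

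Stretches around the core are printed for genes from the low end of the observed range, a near-equal gene and genes below the floor. The genes with the core that were higher on the array labelled Satb1 (Stat2, Ifih1 and Irf2) are left out. Each stretch is in the direction of transcription, with each match in capitals (as its reverse complement where the match is on the other strand). The first 4 are the lowest genes above the floor that hold a match before the start: Bst2 at chr8:71537557-71537632 (minus strand), Rsad2 at chr12:26456533-26456602 (minus strand), Cxcl10 at chr5:92349063-92349132 (minus strand) and Stat4 at chr1:52008113-52008182 (plus strand). Oas1a at chr5:120907526-120907575 (minus strand) is a gene that read nearly the same on both arrays. The last 3 are genes below the floor: Ifit1 at chr19:34640755-34640843 (plus strand), Ifit3 at chr19:34583343-34583446 (plus strand) and Oas3 at chr5:120777695-120777764 (minus strand).
Bst2: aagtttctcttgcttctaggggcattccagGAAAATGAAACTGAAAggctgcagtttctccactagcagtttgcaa
Rsad2: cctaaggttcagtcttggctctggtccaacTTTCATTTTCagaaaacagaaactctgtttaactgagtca
Cxcl10: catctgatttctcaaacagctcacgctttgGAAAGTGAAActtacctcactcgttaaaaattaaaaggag
Stat4: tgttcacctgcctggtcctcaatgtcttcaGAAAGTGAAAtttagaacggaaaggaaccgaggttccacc
Oas1a: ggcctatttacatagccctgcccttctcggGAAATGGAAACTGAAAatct
Ifit1: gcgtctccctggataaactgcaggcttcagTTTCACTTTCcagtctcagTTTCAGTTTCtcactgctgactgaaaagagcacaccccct
Ifit3: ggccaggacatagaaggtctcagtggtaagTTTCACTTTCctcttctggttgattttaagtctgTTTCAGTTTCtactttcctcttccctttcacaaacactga
Oas3: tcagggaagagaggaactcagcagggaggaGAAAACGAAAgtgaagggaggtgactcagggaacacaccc

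Bst2 and Oas1a each hold 2 overlapping matches, the first starting 130 and 20 bases before the transcription start. Ifit1 and Ifit3 each hold 2 separate matches, the first starting 104 and 156 bases before the start. In Bst2 the first match shares 3 bases with a TTCNNNGAA match. Bst2 was the only 1 of the 4 genes with matches to both letters (Bst2, Eif2ak2, Irf2 and Oas1a) in which they overlapped.

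Of the 16 measured genes with the response element core, 13 were above the floor, 10 of them lower and 3 higher on the array labelled Satb1, with a median log2 difference of -0.15, beside 54.8% lower and a median of -0.02 among all genes. Of the 24 measured genes whose windows lacked it, 23 were above the floor, 13 lower and 10 higher, with a median of -0.06. Within the effectors alone, 9 of the 10 genes above the floor with the core were lower (median -0.18), as were 5 of 7 without it (median -0.13). Under quantile normalization, where 49.6% of all genes were lower, 8 of the 13 genes with the core and 12 of the 23 without it were lower. Within the effectors, 7 of the 10 with the core (median -0.10) and 5 of the 7 without it (median -0.09) were lower in that scaling, nearly the same share. None of these genes reached 1.5-fold. A match is a description of letters and does not show a bound site.

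**Figure D4:**
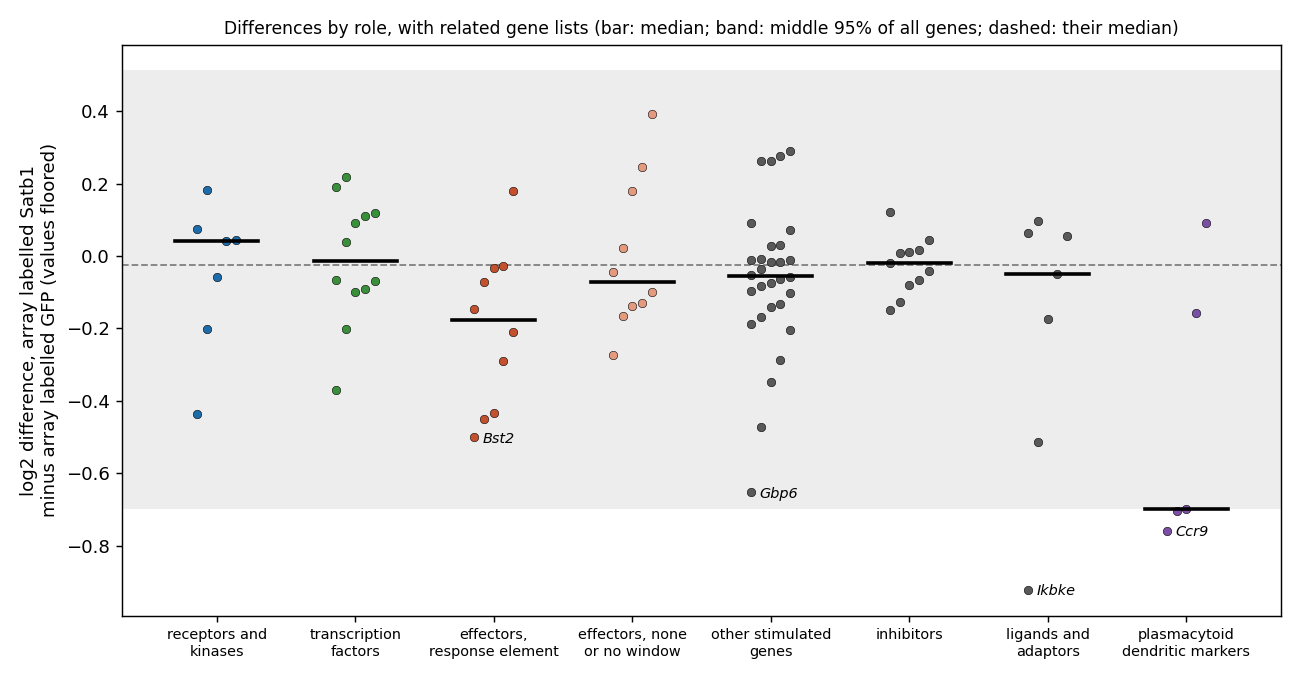
Log2 difference of the array labelled Satb1 minus the array labelled GFP for genes above the floor, by role, beside related gene lists. Effectors whose promoter window holds the response element core are in 1 column. The other effector column holds the 7 whose window lacks it, and also Usp18, Oas2 and Parp14, which have no window. Its median is therefore not that of the 7 genes given in the text. Points are genes and bars medians. The grey band is the middle 95% of all genes (-0.70 to 0.51) and the dashed line their median of -0.02. All interferon pathway genes lie inside the band, with Oas2 and Oasl1 drawn at their lower bounds, while Ikbke and 3 of the 5 markers of plasmacytoid dendritic cells lie at or below its lower edge.

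Genes of the same pathway outside the list were counted for comparison. Of 34 further interferon-stimulated genes, 31 were measured and 30 were above the floor, of which 22 were lower and 8 higher, beside 54.8% lower among all genes. Their median log2 difference was -0.06, beside -0.02. The only 1 past 1.5-fold was Gbp6, a dim gene at 82.5 on the array labelled Satb1 and 130 on the array labelled GFP. Lower by 1.5-fold were 3.91% of all genes. Xaf1, a pro-apoptotic gene, read 229 against 317. The very bright Ifitm1, which encodes a membrane protein that blocks virus entry, read 14746 against 18752, a log2 difference of -0.35, while its relative Ifitm3 read 8849 against 7374, a difference of 0.26.

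Inhibitors of the pathway differed little between the arrays. Of 12 inhibitor genes, 11 were above the floor, 5 higher and 6 lower, with log2 differences from -0.15 to 0.12. The largest were those of Pias4 (531 on the array labelled Satb1 against 589 on the array labelled GFP), Socs2 (945 against 1032) and Cish (636 against 585). Socs1, an inhibitor that interferon induces, was below the floor on both arrays. Among 5 known STAT3 and STAT5 target genes, 1 was higher and 4 lower, beside 54.8% lower among all genes. The lowest was Osm, which encodes oncostatin M, at 121 against 165, and Cish and Socs2, both STAT5 targets, went opposite ways.

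Transcripts of the interferons themselves were not above the floor. Ifnb1, Ifng, Ifna2 and Ifna4 read between 2.1 and 28.7 on the array labelled Satb1 and between 1.4 and 38.1 on the array labelled GFP. The list of ligands and sensing adaptors had 7 of its 11 measured genes over the floor, and Ikbke was the only 1 past 1.5-fold. Among all genes, 3.91% were lower and 1.75% higher by 1.5-fold. Ikbke encodes a kinase that phosphorylates Irf3 and Irf7. It read 460 on the array labelled Satb1 and 872 on the array labelled GFP, 1.89-fold lower by its only probe set. The related kinase gene Tbk1 read 3421 against 3202. Ticam1, an adaptor of Toll-like receptors that leads to Irf3, read 179 against 256, a log2 difference of -0.51, and Myd88, an adaptor of most Toll-like receptors, read 1537 against 1732.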

How the data were processed

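The authors deposited 1 MAS5 intensity per probe set and array, on a linear scale. MAS5 is named in the submitters' processing notes, with no version or scaling target. Trimmed of 2% at each end, the values averaged 497 on either array. Precision is limited by the number of arrays, 1 per group.

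Of 45037 probe sets, 34945 had 1 gene symbol in the platform annotation, and 34741 of these were updated through the Entrez gene ID (RefSeq, GRCm38.p6). Other probe sets were not used. The probe set brightest in mean log2 intensity stood for its gene. For 6 genes (Ifnar2, Irf2, Irf3, Gbp2, Ifi35 and Trim25) its suffix marks possible matches to further transcripts. No further normalization was applied. A ratio to a floored value is a bound, written "at least". A gene was called at 2-fold or 1.5-fold. All measured genes on the list are accounted for. Genes outside it are named where 2-fold apart, among the 3 largest differences of their list, markers, or compared with a relative after their values were seen (Ifitm3, Tbk1, Socs1 and the interferons). Members and lists were chosen with earlier results of these data known. Alternatives changed the floor, scaling and probe set rule. Computation used Python 3.11.15 and pandas 2.3.3. Only the 2-fold calls were tested on simulated arrays, with larger changes set in bright genes. Smaller differences, medians, sign counts and motif counts were not tested in that way.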

Additional observations from a re-analysis of the deposited data

How the results depend on the processing

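The absence of calls at 2-fold and 1.5-fold held under the 75th percentile as floor, quantile normalization, median centring, the mean over probe sets and centring within brightness bins, the last chosen after seeing the data. With the floor at the 25th percentile or with no floor, 3 genes were higher by 2-fold and 4 by 1.5-fold (Ifit3, Zbp1, Oas2 and, for 1.5-fold, Ifit1), because values under the main floor then entered. The members counted in these settings numbered 45 and 46. Among all genes, 440 of 15763 were higher by 2-fold and 1128 by 1.5-fold at the 25th percentile floor. Without a floor, 1472 and 2252 of 18193 were. With no floor, 1 gene was lower by 1.5-fold (Oas3), as was 1 with only probe sets ending in _at alone (Irf3, -0.88). Among all genes, 3135 of 18193 and 402 of 9598 were lower by 1.5-fold in these 2 settings. Over the alternatives, the median log2 difference ranged between -0.07 and -0.03 for all members and between -0.09 and -0.05 for the effectors (-0.11 as reported). That of the transcription factors, -0.01 as reported, turned to 0.05 under quantile normalization, 0.01 under median centring and 0.03 within brightness bins, and was lowest at -0.08. That of the receptors and kinases, 0.04 as reported, turned to -0.01 with probe sets ending in _at alone. Quantile normalization turned the sign of Irf5, Oas1a and Ddx58 (to 0.03, 0.01 and 0.04). The mean over probe sets turned Ifnar1, Jak2, Stat2 and Eif2ak2 (to -0.23, 0.08, -0.19 and 0.14). It moved Tyk2 to -0.22. Ifi35 turned to 0.01 with probe sets ending in _at alone, and Ddx58 to 0.05 when centred within brightness bins. No paired analysis was possible because each group has 1 array, and no array could be left out for the same reason.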
